A study of Mus musculus with 8 samples.

Results

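The nuclear-encoded subunits of the respiratory chain and of ATP synthase were examined in single-cell RNA sequencing data of colonic lamina propria myeloid cells. Genes were taken by symbol (Ndufa, Ndufb, Ndufc, Ndufs, Ndufv, Sdha to Sdhd, Uqcr, Cox4 to Cox8 and Atp5), assembly factors named Ndufaf and pseudogenes were left out, and 20 unique molecular identifiers (UMIs) in total were required. The rule found 80 genes among 16889 rows of the matrix, of which 16801 carried a symbol. Complex I held 37 of them, complex II 4, complex III 8, complex IV 14 and complex V 17. Cox4i2 and Ndufa4l2 matched by name and were left out for having too few UMIs.

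Complexes I and II feed electrons into the ubiquinone pool, complex III passes them to cytochrome c, complex IV reduces oxygen, and complex V, the ATP synthase, uses the proton gradient built by complexes I, III and IV. All complexes but complex II combine subunits encoded in the nucleus with subunits encoded in mitochondrial DNA, so that transcripts of both genomes have to be made. In macrophages and dendritic cells the balance between respiration and glycolysis is known to shift with maturation and activation.

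All 8 mice were female littermates of 6 to 12 weeks that carried CD98hc flox/flox alleles and a Cx3cr1CreER-YFP transgene, in which tamoxifen-inducible Cre and a yellow fluorescent reporter are driven from Cx3cr1 and Cre therefore acts only in cells that express it. The 4 control mice (replicates 1 to 4) received corn oil and the 4 cKO mice (replicates 5 to 8) received 100 µl of 20 mg/ml tamoxifen by intraperitoneal injection on 5 consecutive days, and colons were taken on day 7. Cells sorted as CD11b+ and positive for CCR2, CD64 or both were captured by droplets with 1 library per mouse. The comparison asks what loss of CD98hc changes in the monocytes and macrophages of the gut. Because tamoxifen was given to cKO mice only, the drug and the deletion cannot be told apart.

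Of 5947 barcodes 3213 cells were kept, from 83 to 724 per mouse with 497531 to 3762314 UMIs, and control 3 (85 cells) and cKO 5 (83 cells) were the smallest libraries. The members accounted for 9369 to 82997 UMIs per mouse, and 25 barcode sequences occurred in more than 1 library. Doublets were called for 2 to 5 cells of each control mouse and for 24, 16, 10 and 8 cells of cKO 5 to 8, and results over all cells were also computed without them. Slc3a2, which encodes CD98hc, was counted at 358, 264, 233 and 493 CPM (UMIs of the gene for each 1e6 UMIs of the mouse) in control and 291, 357, 323 and 309 CPM in cKO mice (log2 fold change 0.02 ± 0.21 SE, adjusted p = 0.976, edgeR). Recombination removes exon 3 of the gene and reads come from the 3′ end of a transcript, so that this level does not check the labels. The makeup of the libraries differed between the groups, and the sum of monocyte markers was 1789 to 3460 CPM in control and 7163 to 10566 CPM in cKO mice, that of dendritic cell markers 2176 to 2834 and 833 to 1118 CPM, that of macrophage markers 12069 to 24084 and 10296 to 16485 CPM, that of lymphoid markers 270 to 9005 and 4828 to 13240 CPM, and that of stromal markers 649 to 2122 and 244 to 792 CPM.

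Promoter sequence was available from RefSeq (GRCm38.p6) for 65 of the 80 genes, as 70 windows from 250 bases before to 50 bases after an annotated start. Both strands were searched for the core motifs of factors known to regulate mitochondrial genes. The NRF1 motif (GCGCA and GCGC with any 1 base between them) was present in 25.7% of the members' windows, against 10.2% of the windows of all tested genes and 4.60% of all windows. The YY1 motif AAGATGGC was in 12.9%, against 4.63% and 2.75%, the ERR motif AAGGTCA in 11.4%, against 3.17% and 4.72%, and the ETS motif CCGGAAG in 22.9%, against 18.3% and 8.86%. A match is a description of the letters and not a binding site. The following stretches run from 110 bases before to 30 bases after the start, all on the minus strand and written 5′ to 3′, with matches to any of these motifs in capitals. They are shown for the 3 genes that encode the same mature c subunit of complex V from separate promoters, for the paralogs Cox7a2 and Cox7a2l, whose levels are compared further on, and for Sdha, whose window held 3 NRF1 matches.
Atp5g1, chr11:96075602-96075741: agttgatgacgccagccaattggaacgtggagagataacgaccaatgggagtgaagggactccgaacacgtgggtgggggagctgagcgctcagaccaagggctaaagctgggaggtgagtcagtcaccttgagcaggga
Atp5g2, chr15:102671018-102671157: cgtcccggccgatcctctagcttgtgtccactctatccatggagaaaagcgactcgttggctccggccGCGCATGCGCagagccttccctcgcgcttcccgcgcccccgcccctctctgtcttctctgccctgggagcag
Atp5g3, chr2:73911297-73911436: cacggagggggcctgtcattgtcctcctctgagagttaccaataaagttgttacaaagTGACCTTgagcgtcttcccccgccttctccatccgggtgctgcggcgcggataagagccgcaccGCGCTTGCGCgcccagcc
Cox7a2, chr9:79759824-79759963: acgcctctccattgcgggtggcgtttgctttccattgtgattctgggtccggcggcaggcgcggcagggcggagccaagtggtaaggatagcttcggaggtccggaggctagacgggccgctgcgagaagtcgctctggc
Cox7a2l, chr17:83514304-83514443: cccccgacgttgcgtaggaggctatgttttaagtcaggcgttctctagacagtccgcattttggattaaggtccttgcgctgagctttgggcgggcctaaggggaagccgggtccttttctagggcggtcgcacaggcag
Sdha, chr13:74350211-74350350: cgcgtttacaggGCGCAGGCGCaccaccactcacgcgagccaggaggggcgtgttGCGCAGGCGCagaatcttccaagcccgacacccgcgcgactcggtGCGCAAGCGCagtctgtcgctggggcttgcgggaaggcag

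The genes were expressed at unequal levels within each complex. Because each captured molecule is counted once at its 3′ end, CPM needs no division by transcript length, although capture can differ between genes. In complex I, the 7 core subunits, which carry the flavin and the iron-sulfur clusters, had a median control level of 127 CPM, with Ndufs1 at 31.4 CPM, and the 30 accessory subunits ranged from 88.9 to 404 CPM. Ndufa2 was measured at 427, 399, 372 and 419 CPM in control and at 340, 406, 408 and 422 CPM in cKO mice. Ndufa6 stood at 415, 372, 307 and 409 CPM and at 299, 322, 319 and 344 CPM, and in both genes the groups overlapped. Ndufa4, which is grouped here by its symbol but is known to be a part of complex IV, had 336 ± 32.2 CPM in control and 315 ± 26.2 CPM in cKO mice (SD, n = 4 each).

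Complex II, the succinate dehydrogenase that also belongs to the tricarboxylic acid cycle, had a median control level of 120 CPM over its 4 genes. The flavoprotein Sdha was measured at 117, 114, 105 and 134 CPM in control and 78.4, 100.4, 105.4 and 104.6 CPM in cKO mice. The iron-sulfur protein Sdhb had 172, 160, 109 and 190 CPM and 159, 163, 184 and 181 CPM. The membrane anchors Sdhc and Sdhd averaged 73.3 ± 11.2 and 123 ± 15.3 CPM in control and 66.4 ± 6.16 and 96.5 ± 29.6 CPM in cKO mice. The groups overlapped for all 4 genes, and the lowest value of Sdhd, 56.3 CPM, was that of cKO 5.

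In complex III the core proteins and the Rieske iron-sulfur protein had control means of 139 CPM (Uqcrc2) to 205 CPM (Uqcrc1), and the 5 small subunits 293 CPM (Uqcr11) to 551 CPM (Uqcrh). Uqcrh, the hinge protein near the cytochrome c site, was found at 581, 509, 531 and 585 CPM in control and 464, 546, 521 and 486 CPM in cKO mice. Uqcrb, which lies close to the quinone site, had 422, 448, 390 and 526 CPM and 362, 532, 500 and 520 CPM. Both genes overlapped between the groups.

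Complex IV held the most abundant transcript. Cox4i1, the general isoform of the subunit through which ATP is known to act on the complex, had 1115, 981, 979 and 1177 CPM in control and 921, 1044, 1070 and 1068 CPM in cKO mice. Cox8a had 786, 757, 798 and 866 CPM and 619, 841, 813 and 767 CPM. The 10 general isoforms ranged from 343 to 1063 CPM, whereas the 3 tissue-restricted isoforms stood at 0.977 CPM (Cox6a2), 4.25 CPM (Cox7a1) and 25.2 CPM (Cox6b2). The paralogs of the heart and muscle forms were thus the abundant ones, with Cox6a1 at 443 ± 32.1 CPM and Cox7a2 at 358 ± 55.0 CPM in control mice (SD, n = 4).

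In complex V the F1 part, which makes ATP, ranged from 373 CPM (Atp5d) to 744 CPM (Atp5b, the catalytic beta subunit). Atp5b had 707, 747, 677 and 843 CPM in control and 408, 679, 693 and 677 CPM in cKO mice, and cKO 5 lay far below the other 7 mice. Atp5e, the epsilon subunit, had 655, 676, 677 and 627 CPM and 613, 696, 652 and 698 CPM. The c ring, whose rotation drives the enzyme, drew on all 3 of its genes. Atp5g1 was the highest of them with 275, 265, 292 and 320 CPM in control and 263, 339, 287 and 329 CPM in cKO mice, Atp5g2 had 176, 165, 258 and 203 CPM and 245, 196, 150 and 192 CPM, and Atp5g3 had 160, 171, 183 and 167 CPM and 169, 148, 119 and 141 CPM. Atp5g1 exceeded both other genes in each of the 8 mice, whereas the order of Atp5g2 and Atp5g3 was not tested. Atp5s, named for subunit s (coupling factor B), had 3.80 ± 1.68 CPM in control and 2.42 ± 1.46 CPM in cKO mice.

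No member of the respiratory chain passed the test between cKO and control mice when all cells of a mouse were summed. Of the 79 members that passed the filter on low counts, 0 were called at a false discovery rate of 5% by edgeR, against 4.48% of the 11387 genes tested (2.99% higher and 1.48% lower in cKO mice). At an unadjusted p under 0.05 there were 9 members, and DESeq2 called 1, Cox7a2l. The differences were small, with 52 members above and 27 below 0, a median log2 fold change of 0.06 (all genes −0.03) and a range from −0.98 (Cox6b2) to 0.43 (Atp5k). The 95% confidence interval lay within ±1 on the log2 scale for 77 members and within ±0.5 for 48, and the median standard error was 0.14. Cox6a2, with 31 UMIs in kept cells, was not tested.

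By complex, 29 of 37 members of complex I were above 0, 1 of 4 of complex II, 5 of 8 of complex III, 9 of 13 of complex IV and 8 of 17 of complex V. The small membrane subunits of complex V (Atp5k, Atp5l, Atp5j2 and Atp5mpl), which lie beside the rotor, were all above 0 with a median of 0.34, and 1 of the 5 subunits of the F1 part was above 0 with a median of −0.17. None of these genes passed the test. Atp5k was at 105 CPM in control 4, against 198 to 255 CPM in the other control mice. Of the F1 part, Atp5b (408 CPM) and Atp5a1 (191 CPM) were lowest in cKO 5. Scaling by library totals alone moved the median of all genes to −0.13 and that of the members to −0.04, with 33 members above and 46 below 0, so that the sign of the small differences depended on the scaling. With it, 50.8% of all called genes were higher in cKO mice, in place of 66.9%.

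**Figure D1:**
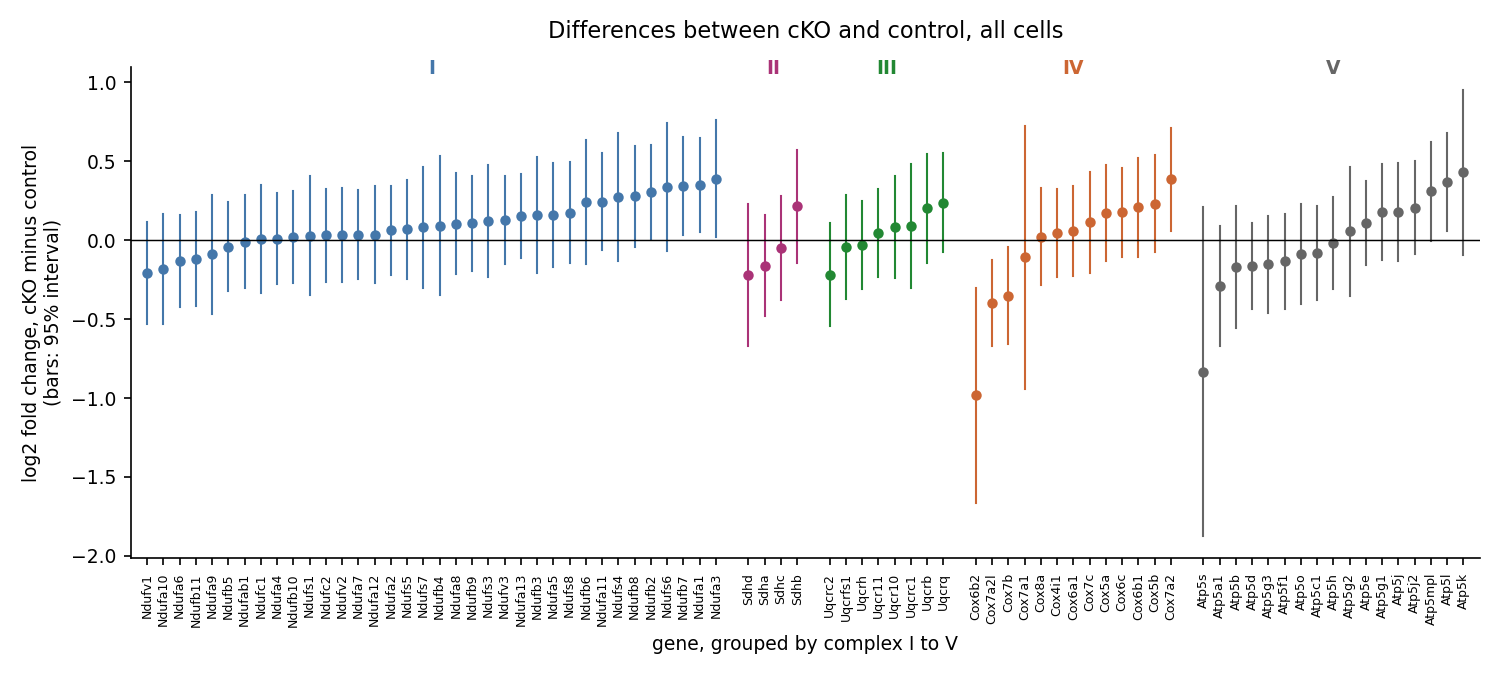
Each point is the log2 fold change of 1 gene between cKO and control mice over all cells (4 mice each), with its 95% interval as a bar, ordered within complexes I to V; 78 of the 79 tested genes are shown. Most intervals cover 0 and no gene was called; the lowest values are Cox6b2 (−0.98) and Atp5s (−0.83), both from few UMIs, and the highest is Atp5k (0.43).

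The CPM values of the groups did not overlap for 7 members, whereas this held for 12.3% of all genes tested (4% with cKO higher and 8.34% with cKO lower). The member with cKO higher was Ndufa3, an accessory subunit of complex I, at 326, 328, 316 and 199 CPM in control and 360, 362, 360 and 349 CPM in cKO mice. Control 4 was set apart in this gene, and the adjusted p was 0.219. With cKO lower were Cox7b, Cox7a2l, Uqcrc2, Atp5a1, Atp5d and Atp5f1. Atp5a1, the alpha subunit of the F1 part, had 373, 366, 351 and 416 CPM in control and 191, 325, 299 and 328 CPM in cKO mice (adjusted p = 0.379). These genes were chosen after their values were seen.

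Summed CPM per complex showed the same closeness of the groups. Complex I had 6497 ± 486 CPM in control and 6511 ± 486 CPM in cKO mice, complex II 472 ± 71.0 and 432 ± 57.9 CPM, complex III 2486 ± 150 and 2442 ± 277 CPM, complex IV 6188 ± 324 and 6107 ± 581 CPM, and complex V 6394 ± 198 and 6184 ± 544 CPM (SD, n = 4 each). All 80 genes together had 22060, 21669, 20824 and 23592 CPM in control and 18831, 22962, 22148 and 22766 CPM in cKO mice, a difference of the means of −1.63%. The groups overlapped for every complex, and cKO 5 was the lowest of the 8 mice in each of them. The sign of the complex V difference was not stable, since with TMM-scaled totals it was 207 CPM above control.

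**Figure D2:**
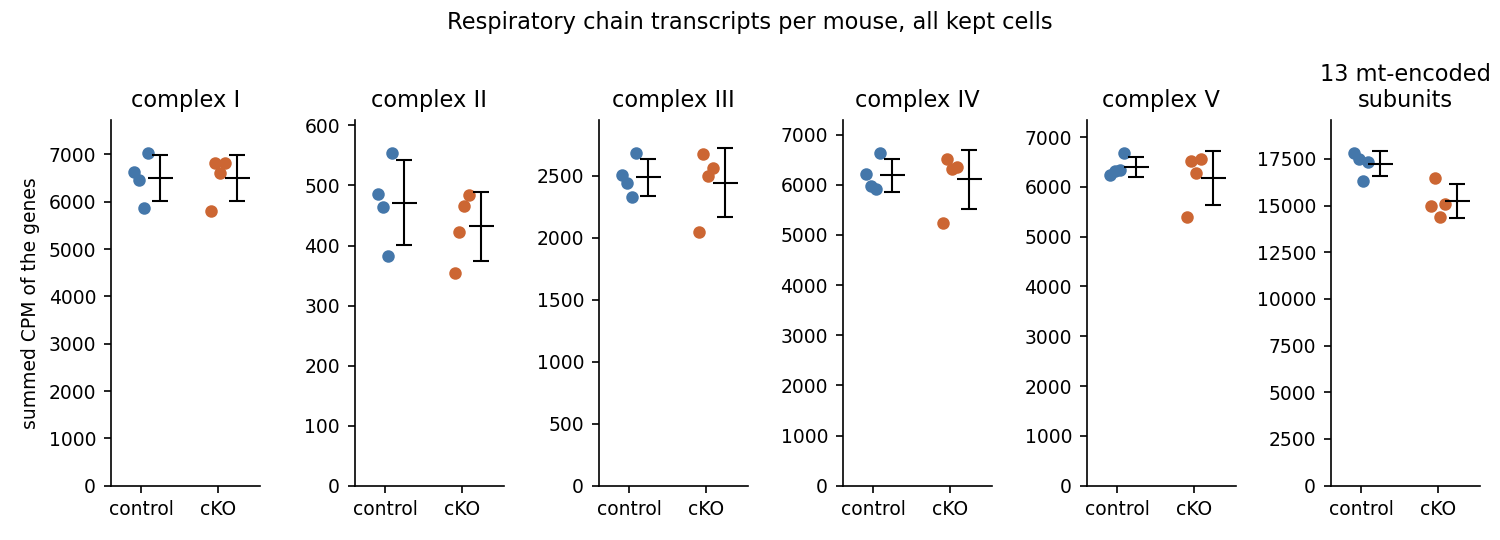
Points are mice (control left, cKO right), and the bars give the mean and SD of the summed CPM of each complex and of the 13 mitochondrially encoded subunits, on linear axes that start at 0. The groups overlap in every panel; the lowest cKO point of complexes I to V is cKO 5.

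Cox7a2 is the general isoform of a small complex IV subunit, and Cox7a2l is known as the paralog that joins complexes III and IV in supercomplexes. Cox7a2l was measured at 427, 417, 368 and 394 CPM in control and 275, 319, 259 and 289 CPM in cKO mice, so that every cKO mouse lay below every control mouse. Its log2 fold change was −0.40 ± 0.13 (SE), which missed the threshold in edgeR (adjusted p = 0.097) and passed it in DESeq2 (adjusted p = 0.0258). Cox7a2 had 354, 355, 294 and 428 CPM in control and 368, 456, 479 and 440 CPM in cKO mice. Its log2 fold change was 0.38 ± 0.15 (adjusted p = 0.173), and the groups overlapped.

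Cells were grouped into 9 clusters without the members and their related lists, and named by markers where these led a cluster. Monocyte-like cells (569), macrophage-like cells (366), a macrophage-like cluster of low depth (227, median 1200 UMIs), dendritic cell-like cells (520), lymphoid-like cells (183) and stromal-like cells (86) were found, and 3 clusters stayed unnamed, of which cluster 2 (552 cells) was led by Ccl3 and Mmp12, cluster 3 (389) by Cebpb and Ier5, and cluster 4 (321) by Arg1 and Saa3. Sums per mouse and cluster were used from 20 cells on, and 6 clusters had at least 3 sums in each group.

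Cox7a2l was called lower in cluster 2 of cKO mice, a call that depended on single mice and on the cell minimum. It had 483, 481 and 374 CPM in 3 control mice and 235, 308, 210 and 272 CPM in 4 cKO mice (log2 fold change −0.84 ± 0.21, adjusted p = 0.0284), and it was the only member called there, against 0.749% of all genes in either direction and 0.171% lower. The call was lost without cKO 5 (adjusted p = 0.092), without cKO 7 (0.135) and without cKO 8 (0.115), with log2 fold changes of −0.79, −0.75 and −0.88. In monocyte-like cells Cox7a2l had 521, 663 and 511 CPM in control and 417, 259 and 298 CPM in cKO mice (−0.66 ± 0.22, adjusted p = 0.175). In dendritic cell-like cells it had 447, 424, 410 and 402 CPM and 305, 361 and 301 CPM (−0.48 ± 0.21, adjusted p = 0.702). The gene was called in neither type. The groups did not overlap in either, but the share of all genes without overlap was not counted there. Cluster 3 gave −0.62 ± 0.26, the low-depth macrophage-like cluster −0.25 ± 0.30 and lymphoid-like cells 0.23 ± 0.26, none of which was called. The difference of the effect between dendritic cell-like and monocyte-like cells was 0.18 ± 0.31 (adjusted p = 0.975).

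**Figure D3:**
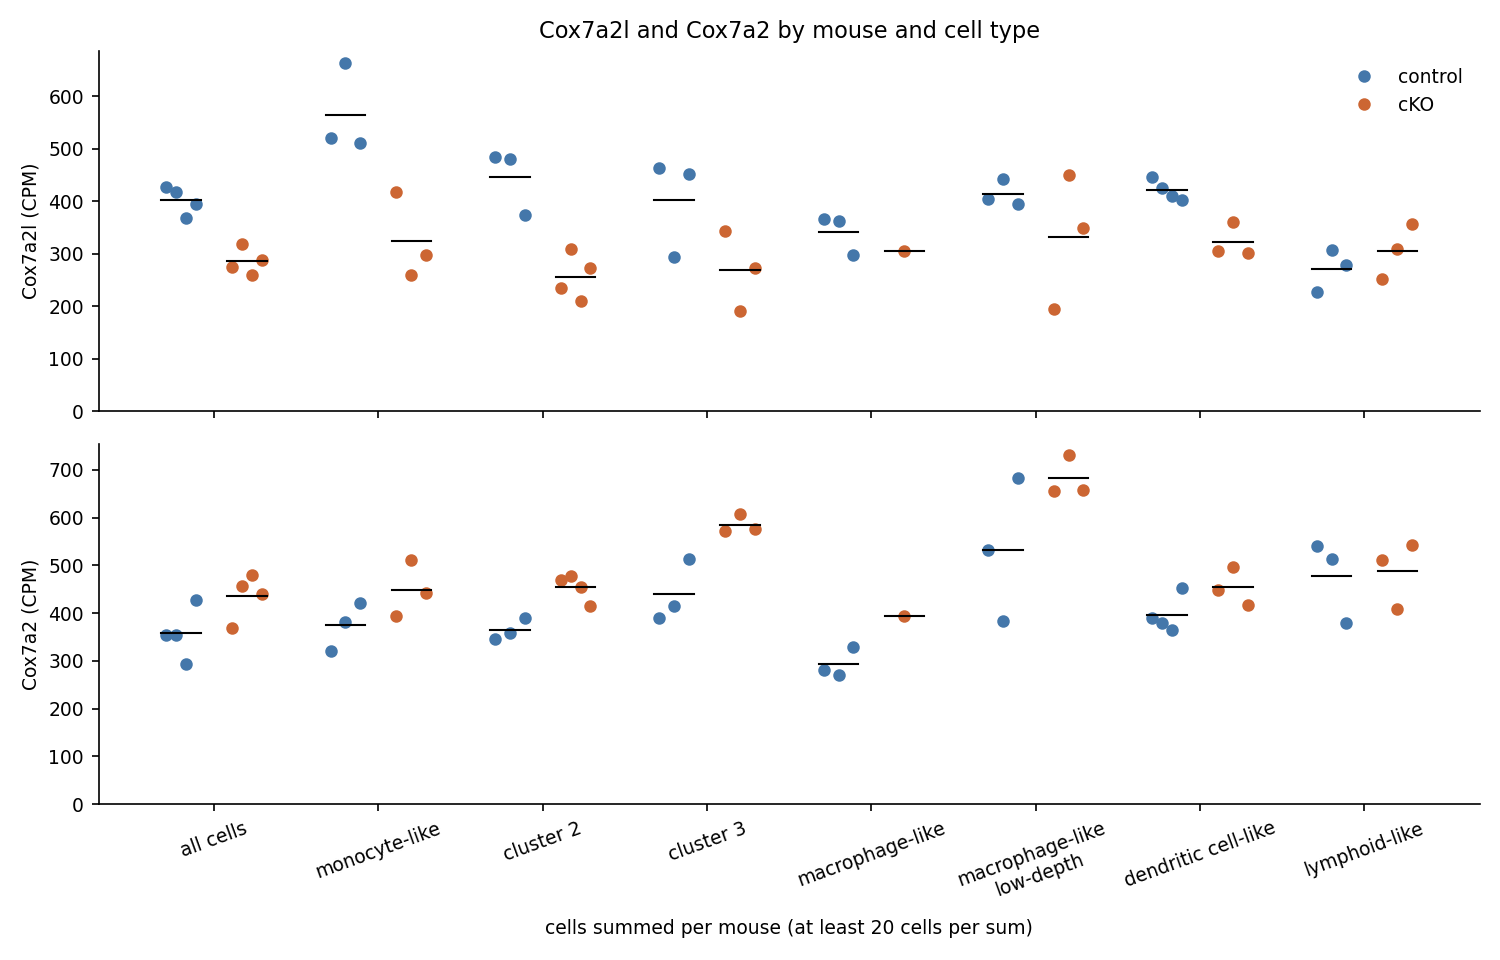
Points are mice and lines are group means of the CPM of Cox7a2l (top) and Cox7a2 (bottom), over all cells and in sums of at least 20 cells of 1 type, on axes that start at 0. In the all-cell sums every cKO mouse lies below every control mouse for Cox7a2l (259 to 319 against 368 to 427 CPM), while lymphoid-like cells overlap.

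No other member was called in any of the clusters tested. Cluster 4, with sums from 2 control and 3 cKO mice, and stromal-like cells were not tested between the groups. In cluster 4 the summed members had 18699 and 19520 CPM in control and 19974 to 21767 CPM in cKO mice. Complex I had 5121 and 5271 CPM in control and 5825 to 6180 CPM in cKO mice. Complex V did not overlap between the groups either, whereas complexes II, III and IV did. These sums carry no test. In monocyte-like cells 0 of 79 members were called against 1.14% of all genes, with 11 members at an unadjusted p under 0.05, 59 above and 20 below 0 and a median of 0.19 (all genes 0.06). DESeq2 called 2 there and fitting the cluster alone called 3, and the shares of all genes called in these settings are not given. In dendritic cell-like cells 0 of 79 were called (0.397% of all genes), with 1 at an unadjusted p under 0.05, 26 above and 53 below 0 and a median of −0.08 (all genes −0.11). Lymphoid-like cells (0.0812% of all genes), cluster 3 (0.0722%) and the low-depth macrophage-like cluster (0.199%) also gave 0, with 3, 3 and 4 members at an unadjusted p under 0.05; DESeq2 called 1 in lymphoid-like cells and 0 in the others. The effect in dendritic cell-like cells minus that in monocyte-like cells was below 0 for 69 of 79 members with a median of −0.27 (all genes −0.22), and 0 members were called against 0.0993% of all genes, with 1 at an unadjusted p under 0.05. Macrophage-like cells had enough sums only from 10 cells on, where 0 of 79 members were called against 0.329% of all genes, with 1 at an unadjusted p under 0.05, and their total was 17183 to 19058 CPM in 3 control mice and 17504 to 21638 CPM in 3 cKO mice.

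Cox6b2, an isoform best known from testis, had the largest difference over all cells. It was found at 36.9, 19.6, 22.1 and 22.2 CPM in control and 22.1, 13.3, 6.84 and 12.7 CPM in cKO mice (log2 fold change −0.98, adjusted p = 0.098), and the groups overlapped. Over pooled cells its level was 134 CPM in stromal-like cells, 25.7 CPM in dendritic cell-like cells and 13.3 CPM in monocyte-like cells, and it was not detected in 183 lymphoid-like cells. Markers of dendritic and stromal cells were lower in cKO mice, and their part in this difference was not tested.

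Genes that work with the respiratory chain were counted from lists of other pathways. Of the 13 mitochondrially encoded subunits, 0 were called between cKO and control mice over all cells, with 1 (mt-Nd2) at an unadjusted p under 0.05, and their sum was 17250 ± 649 CPM in control and 15243 ± 894 CPM in cKO mice (SD, n = 4), with overlap. The ratio of nuclear to mitochondrially encoded transcripts was 1.28 ± 0.06 and 1.42 ± 0.13. Over all cells 4.48% of all genes were called, and the counts of each list stand beside this share. Among assembly factors 1 of 44 was called, the copper chaperone Cox17 (log2 fold change 0.74 ± 0.19, adjusted p = 0.0449), and this call was lost on leaving out any mouse but control 3 (adjusted p up to 0.155). Among electron carriers and related genes 1 of 18 was called, Coq2, an enzyme of ubiquinone synthesis (1.35 ± 0.28, adjusted p = 0.0218), which was lost without control 1, control 2, cKO 7 or cKO 8 (adjusted p up to 0.077).

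In the tricarboxylic acid cycle 1 of 17 genes was called, Fh1, the fumarate hydratase that acts on the product of complex II (−1.0 ± 0.19, adjusted p = 0.0139), and it was called with each mouse left out. Fh1 was also higher in dendritic cell-like than in monocyte-like cells (log2 fold change 1.60). The sum of this list was 1163 to 1632 CPM in control and 816 to 1076 CPM in cKO mice. Of 18 glycolysis genes 0 were called, with 15 above 0 and a median of 0.38, and their sum was 3592 ± 716 CPM in control and 4755 ± 1397 CPM in cKO mice. No call was made among 13 transcriptional regulators and 78 mitochondrial ribosomal proteins, and among 86 cytosolic ribosomal proteins 1 rose (Rpl3l) and 2 fell (Rps4x and Rpl14). In monocyte-like cells the called genes of these lists were the glycolytic enzymes Pkm (0.83) and Eno3 (2.54) and again Cox17 (1.11). Monocyte markers were higher and dendritic cell markers lower in cKO mice. Without the dendritic cell-like, lymphoid-like and stromal-like clusters 1 member was called lower and 0 higher, and the share of all genes called in that fit is not given. Cox17 (0.98, adjusted p = 0.00452), Coq2 (1.82, adjusted p = 0.0108) and Fh1 (−0.98, adjusted p = 0.0472) stayed called, and Rps4x (−0.43, adjusted p = 0.0902) and Rpl14 (−0.29, adjusted p = 0.286) did not. The cells left still differed in makeup, with 181 control and 388 cKO monocyte-like cells and 300 and 66 macrophage-like cells. Between macrophage-like and monocyte-like cells Cox17 (−0.81), Coq2 (−2.02) and Fh1 (0.73) were also called. Coq2 and Fh1 were called between cKO and control in no single cluster tested. The part of makeup in these calls was not tested.

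The level of the respiratory chain varied more between cell types than between the groups. The sum of the 80 genes was lowest in macrophage-like cells (19147 ± 1850 CPM, SD over 4 mice), and higher in cluster 4 (20000 ± 1123, 5 mice), cluster 2 (21308 ± 1350, 7 mice), monocyte-like cells (22404 ± 445, 6 mice), dendritic cell-like cells (23726 ± 1364, 7 mice), lymphoid-like cells (24143 ± 1069, 6 mice), cluster 3 (25958 ± 2259, 6 mice) and the low-depth macrophage-like cluster (28687 ± 1467, 6 mice). The ranges over mice of neighbours in this order overlapped in every pair. The 13 mitochondrially encoded subunits followed another order. They were lowest in the low-depth macrophage-like cluster (9913 ± 4552 CPM), where the nuclear genes were highest, and stood at 14650 ± 1662 CPM in monocyte-like, 18574 ± 1411 CPM in macrophage-like and 23795 ± 2636 CPM in cluster 3 cells. In the low-depth cluster control 4, at 18752 CPM, stood apart from the other 5 mice at 5656 to 9712 CPM. Median depth was 1200 UMIs in the low-depth cluster and 1675 UMIs in cluster 3, against 4762 to 9262 UMIs in the other myeloid clusters, and its part in these levels was not tested.

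**Figure D4:**
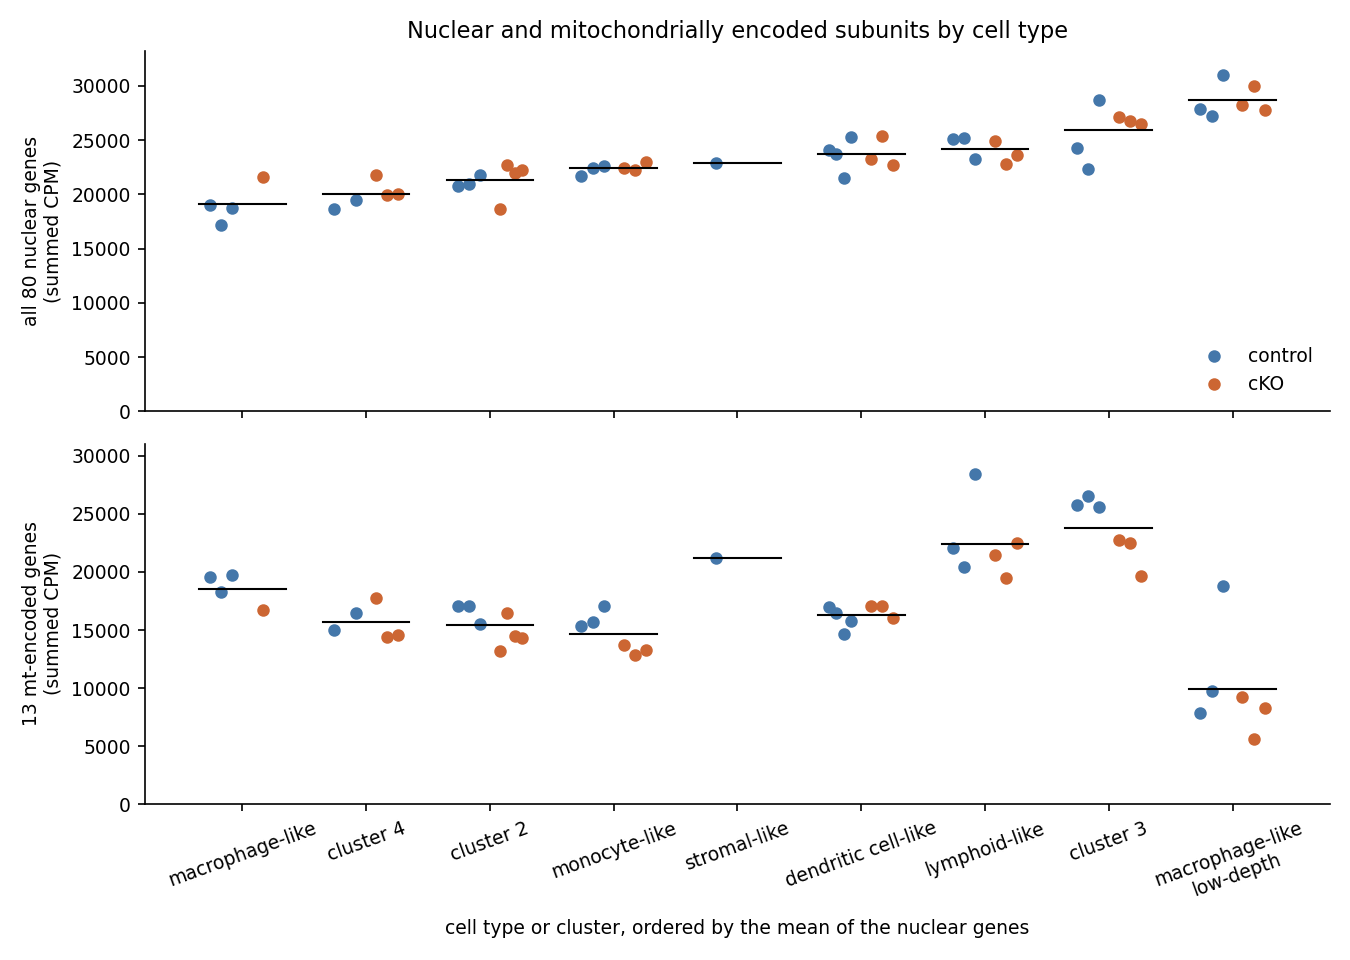
Points are mice and black lines are means over mice of the summed CPM of the 80 nuclear genes (top) and the 13 mitochondrially encoded genes (bottom) in sums of at least 20 cells, ordered by the upper panel, on axes that start at 0; stromal-like cells come from 1 mouse. The upper panel goes from 19147 CPM in macrophage-like cells to 28687 CPM in the low-depth macrophage-like cluster, which is the lowest of the lower panel (9913 CPM).

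Within the same mice, the 80 genes held a smaller share of UMIs in macrophage-like than in monocyte-like cells. The low-depth macrophage-like cluster went the other way, at 27247 to 30972 CPM against 21670 to 23021 CPM in monocyte-like cells (6 mice each). The sum of the 80 genes was 19058, 17183, 18708 and 21638 CPM in macrophage-like and 21670, 22409, 22630 and 23021 CPM in monocyte-like cells of control 1, 2 and 4 and cKO 8, lower in 4 of 4 mice by a mean log2 ratio of −0.23 ± 0.13 (SD). Complexes I, III, IV and V were each lower in 4 of 4 mice (mean log2 ratio −0.13, −0.34, −0.26 and −0.29), and complex II in 2 of 4. With mouse as a block, 14 members were lower and 2 higher in macrophage-like cells, against 9.39% and 9.5% of all genes tested (18.9% in either direction), and 63 of 79 members were below 0 with a median of −0.30 (all genes 0.08). The number lower was 6 without control 1, 9 without cKO 7 and 8 without cKO 8. It was 8 without the mouse block, 7 with no filter on low counts (1 higher) and 27 in sums from 10 cells on, a setting chosen after seeing the data. Shares of all genes called in these alternatives are not given. The summed lymphoid markers had a median of 3284 CPM over mice (447 to 11909) in macrophage-like and 289 CPM (158 to 375) in monocyte-like cells, cycling markers had 44.7 to 366 CPM and 16.3 to 37.7 CPM, and their part in these differences was not tested.

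The largest decreases were in Ndufs4, Uqcrc2 and Uqcrfs1. Ndufs4, an accessory subunit whose loss is known to destabilise complex I, had 88.8, 65.1, 82.0 and 107 CPM in macrophage-like cells and 102, 148, 162 and 143 CPM in monocyte-like cells of the same mice (log2 fold change −0.89 ± 0.22, adjusted p = 0.00183). Uqcrc2, a core protein of complex III, had 87.4, 98.8, 37.3 and 67.6 CPM against 132, 133, 173 and 122 CPM (−0.77 ± 0.24, adjusted p = 0.0128; lost without control 4 or cKO 8, at −0.60 and −0.65). Uqcrfs1, the Rieske protein, had 152, 131, 104 and 175 CPM against 244, 204, 183 and 204 CPM (−0.72 ± 0.21, adjusted p = 0.00672; 0.052 without control 1). These 3 genes were picked for their size of difference in the same mice, and all were lower in macrophage-like cells in each of the 4 mice. The other members that fell were Atp5l, Ndufa6, Uqcrh, Ndufb10, Atp5h, Cox7b, Cox5b, Atp5c1, Cox7a2l, Atp5e and Cox4i1, with log2 fold changes from −0.70 to −0.46.

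Ndufa5 and Atp5s were higher in macrophage-like cells. Ndufa5, an accessory subunit of complex I, had 120, 91.6, 134 and 175 CPM against 89.0, 66.3, 89.8 and 73.2 CPM (0.61 ± 0.22, adjusted p = 0.0427), and the call was lost without control 2, control 4 or cKO 8 (adjusted p up to 0.146). Atp5s rested on 10 UMIs in macrophage-like and 1 UMI in monocyte-like cells, a ratio of 13.8 with an exact 95% interval from 1.96 to 597 for counting error only, and its call was lost on leaving out control 1, control 2, cKO 6, cKO 7 or cKO 8.

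Of the 13 mitochondrially encoded subunits 2 were called higher in macrophage-like cells (mt-Nd1 at 0.73 and mt-Nd2 at 0.69) against 9.5% of all genes, and 13 of 13 were above 0 with a median of 0.33. Of 17 glycolysis genes tested 10 were lower in macrophage-like cells and 0 higher, with a median of −1.11, and of 86 cytosolic ribosomal proteins 32 were lower, against 9.39% of all genes.

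Dendritic cell-like cells exceeded macrophage-like cells in the summed members, with the largest mean ratio in complex V. The sum of complex V was higher in 4 of 4 mice by a mean log2 ratio of 0.49 ± 0.22 (SD) and that of all 80 genes by 0.33 ± 0.18. Differences between the complexes were not tested. The low-depth macrophage-like cluster stood above dendritic cell-like cells, with means of 7653 against 7274 CPM for complex V and 28687 against 23726 CPM for the 80 genes. In the test 19 members were higher and 0 lower, against 14.2% and 15.2% of all genes (29.3% in either direction), 68 of 79 members were above 0, and the median was 0.29 (all genes −0.0048). Complex V held 9 of the 19 calls among its 17 genes. Without control 2 the number was 12. Cytosolic ribosomal proteins rose in the same contrast, with 67 of 86 called higher, and so did 7 of 17 genes of the tricarboxylic acid cycle. Dendritic cell-like cells had a median of 9262 UMIs and macrophage-like cells of 5468 UMIs, and the part of depth was not tested.

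Uqcrc2 rose most, from 87.4, 98.8, 37.3 and 67.6 CPM in macrophage-like cells to 157, 176, 193 and 160 CPM in dendritic cell-like cells of the same mice (1.04 ± 0.22, adjusted p = 0.000154). Cox7b, a small subunit of complex IV, had 232, 153, 306 and 214 CPM against 396, 434, 465 and 389 CPM (0.95 ± 0.18, adjusted p = 2.3e-05). Ndufb11, a membrane arm subunit of complex I, had 184, 102, 179 and 180 CPM against 295, 293, 287 and 245 CPM (0.90 ± 0.20, adjusted p = 0.000159). Each of these, picked for its size of difference in the same mice, was higher in dendritic cell-like cells in 4 of 4 mice. Of the c ring genes, Atp5g3 (0.78 ± 0.20, adjusted p = 0.0013) and Atp5g1 (0.48 ± 0.19, adjusted p = 0.0498) were called and Atp5g2 (0.25 ± 0.18, adjusted p = 0.311) was not.

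Between dendritic cell-like and monocyte-like cells a smaller share of the members than of all genes was called. In 6 mice with both types, 8 of 79 members were higher and 5 lower in dendritic cell-like cells, against 15% and 15.1% of all genes (30.1% in either direction). Of the members 42 were above and 37 below 0 with a median of 0.03 (all genes 0.03). Complex V was higher in 6 of 6 mice by a mean log2 ratio of 0.20 ± 0.07 (SD), whereas complexes III and IV were higher in 3 of 6. Ndufa12, an accessory subunit of complex I, had 139.9, 174, 170, 196, 147 and 208 CPM in dendritic cell-like cells and 79.1, 122, 72.5, 68.3, 96.0 and 101 CPM in monocyte-like cells of control 1, 2 and 4 and cKO 6, 7 and 8 (0.83 ± 0.18, adjusted p = 9.5e-05). Ndufb11 had 245 to 387 CPM against 167 to 209 CPM (0.65 ± 0.16, adjusted p = 0.00105), and Atp5g2 had 184 to 281 CPM against 110 to 159 CPM (0.62 ± 0.16, adjusted p = 0.00105). The values of these 3 genes, picked for their size of difference in the same mice, did not overlap between the types in the 6 mice. Summed cycling markers had a median of 965 CPM over mice (325 to 1563) in dendritic cell-like and 25.8 CPM (16.3 to 37.7) in monocyte-like cells. In cells without a UMI of these markers, a setting chosen after seeing the data, 4 members were higher and 0 lower. This setting left out 659 of 3213 cells, and its share of all genes called is not given. Ndufa12 (0.79, adjusted p = 0.00346) and Ndufb11 (0.57, adjusted p = 0.0245) were called there, and Atp5g2 (0.47, adjusted p = 0.107) was not.

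Among the c ring genes, Atp5g2 and Atp5g3 were higher in dendritic cell-like than in monocyte-like cells, and Atp5g1, with a log2 fold change of 0.23 ± 0.16 (adjusted p = 0.314), was not called. The differences between the 3 genes were not tested.

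Lower in dendritic cell-like than in monocyte-like cells were Uqcrh, Ndufb3, Ndufa11, Cox4i1 and Cox6b1. Uqcrh had 381 to 519 CPM in dendritic cell-like and 526 to 764 CPM in monocyte-like cells (−0.59 ± 0.14, adjusted p = 0.000665). Ndufb3 (−0.51 ± 0.18, adjusted p = 0.0287) and Ndufa11 (−0.48 ± 0.17, adjusted p = 0.0262) are accessory subunits of complex I, and their calls were lost without cKO 6, cKO 7 or cKO 8. The number lower was 2 without cKO 6 or cKO 7 and 1 without cKO 8. In the smaller set of cells without a UMI of cycling markers no member was called lower, and Uqcrh was at −0.42 (adjusted p = 0.0706). Glycolysis genes differed in the same direction as in macrophage-like cells, with 10 of 17 lower and 1 higher than in monocyte-like cells.

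**Figure D5:**
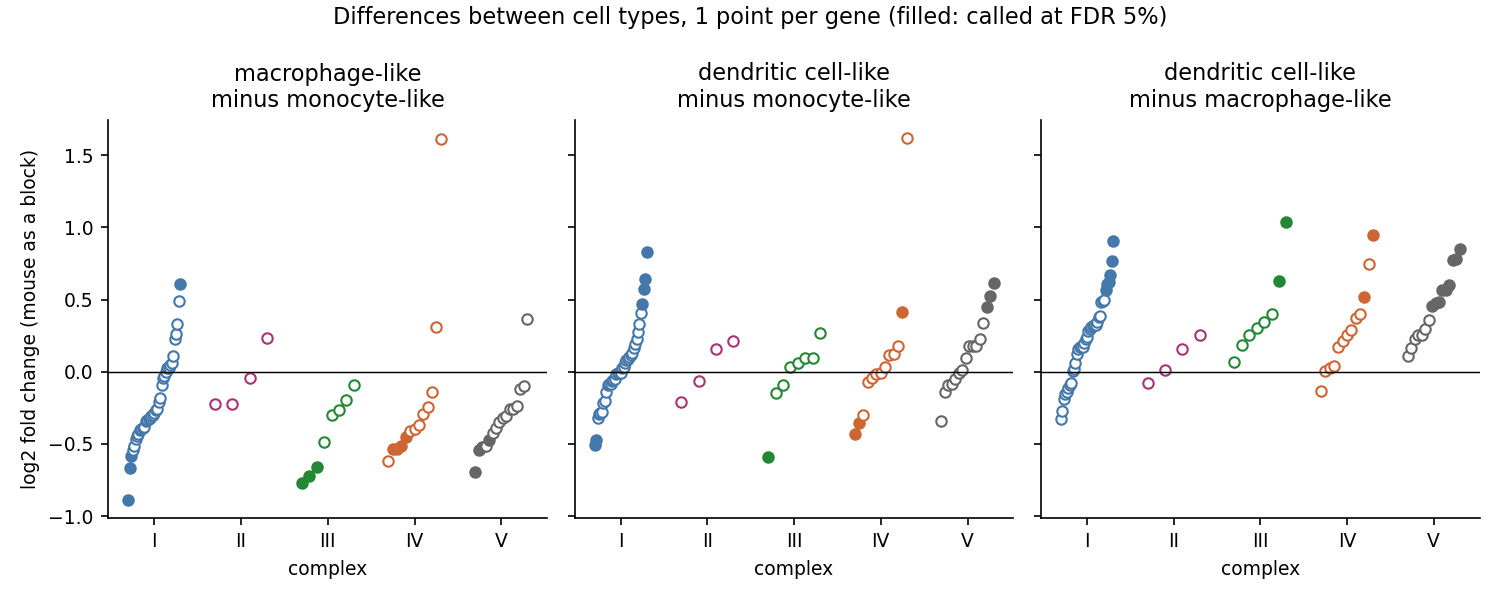
Each point is 1 gene, placed by complex and by its log2 fold change between cell types of the same mice, and filled points were called at a false discovery rate of 5%; Atp5s is left out for its few UMIs. Most points lie below 0 in the left panel (median −0.30) and above 0 in the right panel (median 0.29), where complex V holds 9 of 19 calls.

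Carriers and regulators beside the chain differed between the types as well. Atpif1, the inhibitor of the ATP synthase, was higher in macrophage-like (log2 fold change 1.04) and dendritic cell-like cells (1.56) than in monocyte-like cells, Cycs, which encodes cytochrome c, was lower in macrophage-like (−0.98) and higher in dendritic cell-like cells (0.45), and Hif1a, a regulator of glycolytic genes, was lower in both (−1.29 and −1.84). These 3 genes were chosen after their values were seen. In the sums over all cells Atpif1 had 531, 672, 441 and 509 CPM in control and 394, 400.0, 280 and 404 CPM in cKO mice, without overlap and without a call.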

How the data were processed

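The authors aligned 3′ droplet reads with Cell Ranger (STAR 2.5.3a) to mm10 with an Ensembl annotation that included EYFP and deposited a matrix of UMI counts (genes by cells) that joins 8 libraries, each from 1 mouse. As in the study's methods, barcodes were kept at a log10 of at least 2.8 UMIs and 2.6 genes, at most 5% mitochondrial UMIs and no hemoglobin UMI. Rows without a symbol (88) stayed in the table. Depth was 497531 to 3762314 kept UMIs per mouse, and intervals on counts cover counting error only.

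Counts were added up over all cells of a mouse, or over its cells in a cluster where there were 20 or more, and fitted across all genes with a CPM above 1 in at least 3 sums and detection in 20 cells (R 4.3.3, edgeR 4.0.16, TMM scaling and the quasi-likelihood test, Benjamini-Hochberg adjustment, threshold 5%). Contrasts between cell types had the mouse as a block. Clusters (scran 1.30.0) were built without the members, the pathway lists and 209 genes that the study lists as changed; cells called as doublets (scanpy 1.11.5) were kept and left out in an alternative. Sums per complex are CPM and carry no test. DESeq2 1.42.0, other scalings, filters, clusterings, cell minimums and leaving out each mouse were alternatives, of which the cycling-marker and 10-cell settings between types were chosen after seeing the data. The tests were tried on simulated data with 200 genes changed 4-fold. Of these, 39.5% to 81% were recovered, and 87.3% to 100% of those from 50 CPM on. Smaller changes were not simulated. Genes named are members past the threshold, the 2 highest of each complex, paralog groups, the 3 largest called differences in each direction between types and up to 3 called genes per list; exceptions are stated. The values of 1 member are not reported here. The members and lists were chosen with earlier results of these data known.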

Additional observations from a re-analysis of the deposited data

Results flagged for a closer look

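In 92 groups of mice examined, 3 held a mouse whose gap to the nearest other, as a share of the range of its group, was above the 95% critical value of Dixon's test, and chance gives about 1 in 20 groups. Atp5b was at 408 CPM in cKO 5, where the other cKO mice had 677 to 693 CPM. The sum of complex IV was 5246 CPM in cKO 5, against 6310 to 6519 CPM in the other cKO mice. Both values come from the library with the fewest cells (83). The sum of the tricarboxylic acid cycle genes was 1632 CPM in control 4, against 1163 to 1200 CPM in the other control mice.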

How the results depend on the processing

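No call among the members over all cells was added by the median-of-ratios scaling, by library totals alone, by the doublet filter, by a limit of 10% mitochondrial UMIs or by taking every deposited barcode. A single lower member was called by DESeq2, without the filter on low counts, and without the dendritic cell-like, lymphoid-like and stromal-like clusters (1 each), and 1 higher member with both mice of fewest cells left out; the cause was not tested. Shares of all genes called are not given beside these single calls. Signs turned in genes whose difference was near 0. With library totals alone they were Ndufa2 (−0.035), Cox4i1 (−0.052), Cox8a (−0.075), Atp5g2 (−0.032), Cox6a1 (−0.038), Ndufa4 (−0.090) and Slc3a2 (−0.079). Without doublet calls they were Ndufa4 (−0.074) and Slc3a2 (−0.070), at 10% mitochondrial UMIs Ndufa4 (−0.0026), and with the smallest mice left out Uqcrh (0.018) and Slc3a2 (−0.047). Without the 3 clusters of other cell types they were Ndufa2 (−0.011), Cox4i1 (−0.017), Cox8a (−0.037), Atp5b (0.0086) and Slc3a2 (−0.36), and the complex V difference was 416 CPM; it was 207 CPM with TMM-scaled totals. Leaving out 1 mouse at a time, log2 fold changes ran from −0.041 to 0.21 (Atp5g2), −0.0022 to 0.11 (Cox4i1), −0.36 to 0.13 (Cox7a1), −0.028 to 0.12 (Cox8a), −0.032 to 0.078 (Ndufa4), −0.11 to 0.017 (Sdhc), −0.0998 to 0.24 (Slc3a2) and −0.080 to 0.022 (Uqcrh).

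Per cell type, DESeq2 called 3 members in cluster 2, 1 in lymphoid-like and 2 in monocyte-like cells, at least 10 cells per sum gave 0 in cluster 2, clusters fitted alone gave 3 and graph clustering 2 in monocyte-like cells, and no filter gave 1 in dendritic cell-like cells. Leaving out 1 mouse gave 0 to 1 in cluster 2. Between macrophage-like and monocyte-like cells, 8 members were lower with no mouse block, 1 was higher and 7 lower with no filter, and 27 were lower from 10 cells per sum. Leaving out 1 mouse gave 0 to 2 higher and 6 to 14 lower. Between dendritic cell-like and monocyte-like cells, 2 were lower with no filter, 4 were higher and 0 lower in cells without cycling markers, and 1 to 5 were lower with 1 mouse left out. Between dendritic cell-like and macrophage-like cells, 33 were higher and 1 lower from 10 cells per sum, and 12 to 25 were higher with 1 mouse left out. The 10-cell and cycling-marker settings between types were chosen after seeing the data. Shares of all genes called under these alternatives are not given, so the counts of members cannot be set against them. Over all alternatives, 206 counts of members and complex sums stayed close to the reported value and 37 moved. Control and cKO mice could not be paired, because the sample labels record no litter or other pairing. Cell numbers limited cKO mice most in stromal-like cells, where 0 of the 4 mice had at least 20, and in macrophage-like cells, where 1 had.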

Other observations

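Barcodes with over 5% mitochondrial UMIs that passed the other filters (381) had less of the nuclear respiratory transcripts, with 13924 to 20746 CPM per mouse against 18831 to 23592 CPM in kept cells, lower in 8 of 8 mice. Counted over UMIs that are not mitochondrially encoded, the values were 14923 to 22657 CPM and 19117 to 24008 CPM.

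The muscle isoform Cox6a2 had 31 UMIs in 18 kept cells. Of these, 13 were in 1 dendritic cell-like cell of cKO 7, which also held 1 UMI of Siglech, a marker of plasmacytoid dendritic cells.

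With 12 clusters the dendritic cell-like cells fell into a part led by Cd209a, with 22926 ± 1663 CPM of the 80 genes, and a part led by Xcr1, with 24585 ± 696 CPM (SD, 4 mice each), and the ranges overlapped.

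Control 4 was low in 3 subunits. Atp5k was at 105 CPM there against 198 to 255 CPM in the other control mice, Ndufb4 at 59.9 against 86.5 to 121 CPM, and Ndufa3 at 199 against 316 to 328 CPM. These genes were picked after their values were seen.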
